A study of Mus musculus with 6 samples.

Results

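The RUNX family and its partner were followed as 4 genes: Runx1 (ENSMUSG00000022952), Runx2 (ENSMUSG00000039153), Runx3 (ENSMUSG00000070691) and Cbfb (ENSMUSG00000031885), taken by name from the 56940 genes listed in each count file. RNA had been sequenced from lens capsules of C57BL/6 mice, labelled wildtype, that carried the lens epithelial cells left after the fiber cell mass was removed surgically, a mouse model of cataract surgery. Capsules were taken at 0 h or at 72 h after surgery, with 3 libraries per time and 5 capsules pooled in each library. The series text describes surgery on one eye, and on the other eye of the same mouse 72 h later, so that eyes of the same animals could supply both times. The sources do not say which animals entered which pool, and they give neither age nor sex. The descriptions of all 6 libraries carry the tag RUNX_Cre_N, which the sources do not explain, and both times carry it alike.

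RUNX proteins are transcription factors that bind DNA through the Runt domain. CBFB, the beta subunit, does not bind DNA itself but strengthens the binding of any RUNX protein and protects RUNX1 from degradation. RUNX1 is needed for the formation of blood stem cells and acts in epithelial stem cells of skin and hair, RUNX2 directs bone formation, and RUNX3 acts in T and NK cells and in sensory neurons. Each Runx gene is transcribed from a distal and a proximal promoter, and RUNX proteins can bind near their own genes. Counts per gene do not tell the transcripts of these promoters apart.

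The start regions of the Runx genes are shown because a window of each holds the same repeated RUNX motif. The part of this motif in the changes of their RNAs was not tested. RefSeq windows from 250 bases before to 50 after a start site (build GRCm38.p6, which is not the build of the count files) were found for all 4 genes, 6 windows in all. In each line below, 30 bases are printed 5′ to 3′ on the gene's strand, and the capitals mark AACCACA, which contains the reverse complement of the RUNX core motif TGTGGT.
Runx1, distal window, chr16:92826025-92826054, minus strand: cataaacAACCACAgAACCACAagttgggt
Runx2, its 1 window, chr17:44814583-44814612, minus strand: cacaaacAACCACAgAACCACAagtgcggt
Runx3, distal window, chr4:135120503-135120532, plus strand: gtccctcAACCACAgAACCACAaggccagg

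The stretch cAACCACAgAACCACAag, 18 bases long, was identical in the 3 Runx genes. The tandem motif AACCACANAACCACA, searched on both strands, occurred in 5 of 32851 promoter windows of the RefSeq table (0.0152%). These were the windows of Runx1, Runx2 and Runx3, that of Gm16225, which shares 232 bases with the distal Runx3 window, and that of Olfr24. The pattern searched was that of the repeat printed above, so its rarity elsewhere is not a test. The repeat lay at positions 28 to 42 after the start site in Runx1, at 23 to 37 in Runx2, and at −135 to −121 in Runx3. The core TGTGGT alone, on either strand, was far more common, with at least 1 match in 16.8% and at least 2 in 1.81% of windows. It matched 2 times in the distal Runx1 window, 3 times in the Runx2 window and 2 times in the distal Runx3 window. The proximal windows of Runx1 and Runx3 and the window of Cbfb did not contain these letters. Among tested genes with a window, the core was found for 15.1% of those called higher at 72 h, 13.2% of those called lower and 14.7% of the rest.

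**Figure D1:**
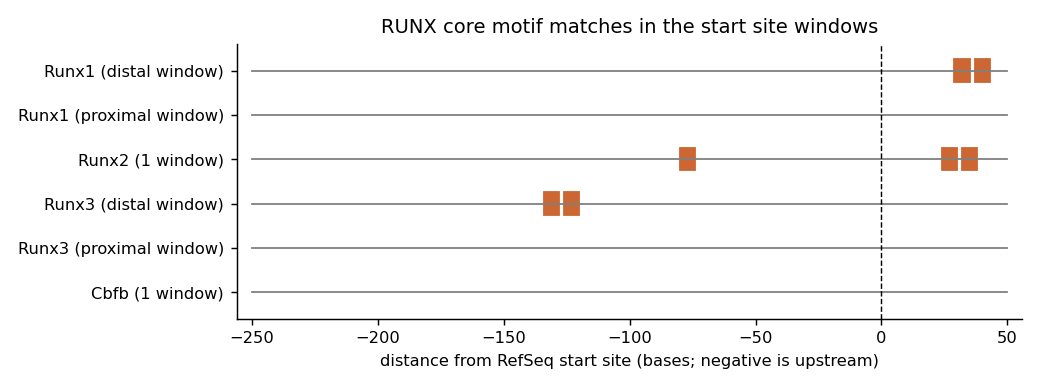
Matches of the RUNX core TGTGGT on either strand (blocks) in the RefSeq windows of the 4 genes, by distance in bases from the start site (dashed line). The paired blocks in the Runx1 distal, Runx2 and Runx3 distal windows are the shared repeat, and the other windows hold no block.

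Reads assigned to genes numbered 11338820 to 12432688 per library at 0 h and 8453450 to 8945397 at 72 h. The makeup of the libraries shifted as well: crystallin genes held 15.9% to 16.9% of the counts at 0 h and 1.45% to 2.89% at 72 h, and RNAs encoded by mitochondria 3.75% to 3.91% and 16.6% to 25.3%. The lens epithelial factor Pax6 was abundant at both times (684 ± 23.0 and 643 ± 91.5 CPM, with SD, n = 3). At 72 h Pax6 was highest in replicate 3 (593, 588 and 749 CPM). It was the 1 of 8 lens epithelial markers that did not fall. The other 7 were lower at 72 h, among them Foxe3, at 249 ± 8.85 and 58.4 ± 4.92 CPM. Of all tested genes 17.5% were called lower. CPM are counts scaled by the library's total after TMM normalization, which corrects for differences in RNA makeup. Among 72 h libraries, replicate 3 stood apart through ocular surface keratins, whose 5 markers summed to 2591 CPM there, against 2.66 and 54.8 CPM in the other 72 h libraries and 10.7 to 31.0 CPM at 0 h.

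All 4 genes were higher at 72 h. Each passed the filter on low counts and the test across all genes, and in each the lowest 72 h library lay above the highest 0 h library. Of all 15407 tested genes, 21.0% were called higher at 72 h (38.5% in either direction), and 26.5% were higher at 72 h without overlap between the groups (53.5% in either direction). The changes ranged from 3.00-fold for the partner gene Cbfb to 127-fold for Runx1. In pooled capsules a change in the number of cells of a type and a change in the RNA per cell cannot be told apart.

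Runx1 had 37, 22 and 49 counts in the 0 h libraries (3.20, 1.86 and 3.86 CPM) and 3305, 3130 and 3277 counts in the 72 h libraries (383, 362 and 401 CPM). All 0 h libraries were near the bottom of the measured range and all 72 h libraries were high, with little spread among the latter. Its mean rose from 2.98 ± 1.02 to 382 ± 19.6 CPM (SD, n = 3), a log2 change of 6.99 ± 0.23 (SE; adjusted p = 8.1e-08, edgeR's quasi-likelihood test, adjusted by Benjamini and Hochberg's method for every gene tested). The relative SD was 34.3% at 0 h and 5.13% at 72 h. Its log2 change was larger than that of 99.2% of the tested genes, at rank 125 of 15407, and its p ranked 26th.

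Runx2 had 28, 30 and 76 counts at 0 h (2.42, 2.54 and 5.99 CPM) and 287, 389 and 335 at 72 h (33.2, 44.9 and 41.0 CPM). At 0 h replicate 3 was the highest, and at 72 h replicate 1 was the lowest, still above every 0 h library. The log2 change was 3.43 ± 0.35 (SE; adjusted p = 5.6e-05, edgeR), a 10.8-fold rise. Without 0 h replicate 3 it was 3.99.

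Runx3 was the least abundant member. Its counts were 9, 0 and 8 at 0 h (0.778, 0 and 0.631 CPM) and 82, 136 and 151 at 72 h (9.49, 15.7 and 18.5 CPM). The 0 h libraries held a total of 17 counts, and it passed the filter on low counts through the 72 h libraries alone, as did 1065 of all 15407 tested genes, of which 731 were called higher. The log2 change was 4.91 ± 0.73 (SE; adjusted p = 5.9e-04, edgeR), and 5.60 with limma voom. Without 72 h replicate 3, the library with high keratins, it was 4.72 (adjusted p = 1.3e-04).

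Cbfb, the shared partner, was the most abundant member at 0 h. It had 220, 170 and 259 counts at 0 h (19.0, 14.4 and 20.4 CPM) and 475, 494 and 404 at 72 h (55.0, 57.1 and 49.4 CPM). Libraries within each time lay close together. The log2 change was 1.58 ± 0.17 (SE; adjusted p = 8.0e-05, edgeR), the smallest of the 4.

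**Figure D2:**
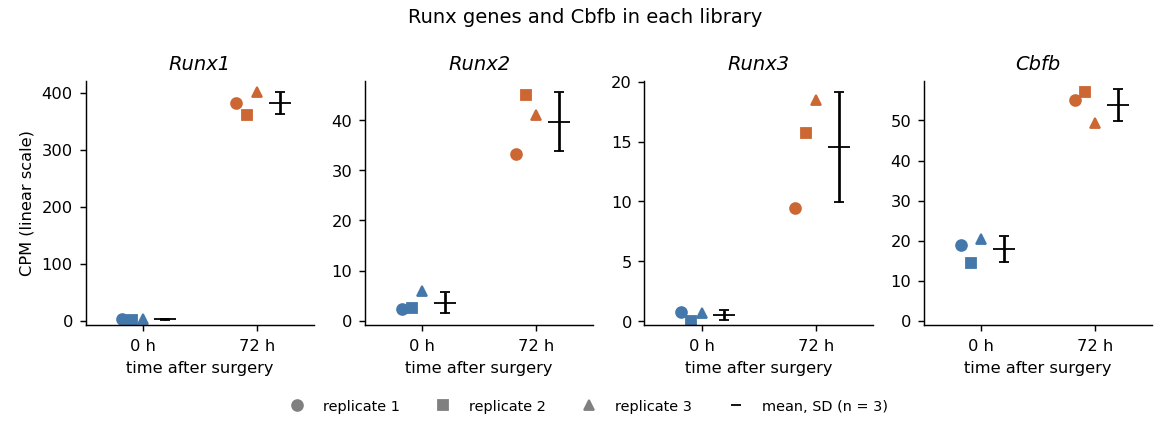
CPM of Runx1, Runx2, Runx3 and Cbfb in each of the 6 libraries (linear axes from 0, one scale per gene; symbols mark replicates, bars the mean and SD of 3 libraries). In each panel the 72 h libraries lie above all 0 h libraries, by the widest margin for Runx1 (362 to 401 against 1.86 to 3.86 CPM).

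To compare levels between genes, CPM were divided by the length of all annotated exons. At 0 h the order per kilobase was Cbfb at 5.16 ± 0.908, Runx2 at 0.413 ± 0.230, Runx1 at 0.247 ± 0.0848 and Runx3 at 0.0939 ± 0.0826 CPM per kb (SD, n = 3). Cbfb stood clear of the Runx genes, whereas the ranges of Runx2 and Runx1 overlapped, and so did those of Runx1 and Runx3 (lowest Runx1 library 0.155, highest Runx3 library 0.156). At 72 h the order was Runx1 at 31.7 ± 1.63, Cbfb at 15.5 ± 1.14, Runx2 at 4.49 ± 0.674 and Runx3 at 2.91 ± 0.919 CPM per kb. None of these neighbours overlapped, the closest being the lowest Runx2 library (3.76) and the highest Runx3 library (3.69). Exon lengths include exons that may be unused in these cells, so the order rests on the annotation.

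The makeup of the family changed along with its level. Runx1 held 50.0%, 42.3% and 36.8% of the summed Runx counts in the 0 h libraries and 90.0%, 85.6% and 87.1% in the 72 h libraries. Runx2 held the larger share in 0 h replicates 2 and 3, at 57.7% and 57.1%, and 7.81% to 10.6% at 72 h. The Runx1 share differed by 44.5 percentage points between the times (exact two-sided permutation p = 0.1, the smallest that 3 libraries against 3 allow). The log2 ratio of Runx1 to Runx2 counts rose by 3.50, from −0.22 ± 0.54 to 3.27 ± 0.26 (SD, n = 3; exact permutation p = 0.1). These values are taken within a library and do not depend on how libraries are scaled.

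The balance between the RNAs of the DNA-binding subunits and the RNA of their partner turned over. Protein was not measured. Per library, the log2 ratio of Runx1 to Cbfb counts was −2.56, −2.92 and −2.39 at 0 h and 2.80, 2.66 and 3.02 at 72 h. Cbfb reads outnumbered Runx1 reads in every 0 h library, and the reverse held in every 72 h library. The mean difference was 5.45 (exact two-sided permutation p = 0.1, again the smallest possible). With exon length taken into account, the summed Runx RNAs were 0.142 ± 0.0443 times Cbfb at 0 h and 2.55 ± 0.336 times Cbfb at 72 h (SD, n = 3).

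**Figure D3:**
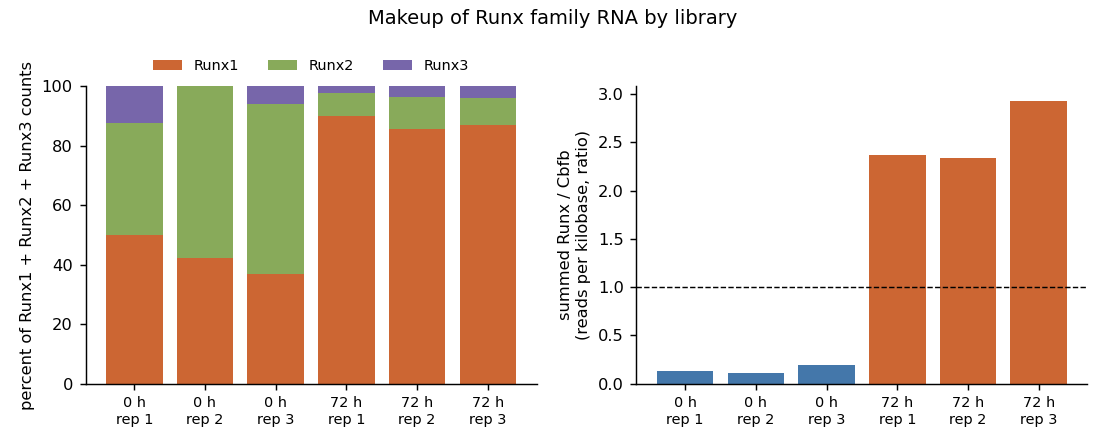
Left, the share in percent of Runx1, Runx2 and Runx3 in their summed counts, per library; right, the ratio of summed Runx reads per kilobase to Cbfb reads per kilobase, with a dashed line at 1. Runx1 takes 85.6% to 90.0% at 72 h, and the ratio lies below 0.192 in all 0 h libraries and above 2.33 in all 72 h libraries.

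RUNX1 and RUNX3 are also proteins of blood cells, so markers of such cells are given beside these changes. Of 17 macrophage and monocyte markers, 13 rose and 4 were not called, while 21.0% of all tested genes rose. The summed level of the 17 went from 37.6 to 54.9 CPM at 0 h to 246 to 453 CPM at 72 h. The pan-leukocyte gene Ptprc was at 1.38, 1.35 and 3.08 CPM at 0 h and at 25.1, 20.2 and 14.4 CPM at 72 h. Of the 17 markers, 9 passed the filter on low counts through their 72 h libraries alone and so could hardly be found lower. Of these 9, 8 rose, as did 5 of the other 8. Over all tested genes, 731 of 1065 that passed in this way rose, and 2499 of the other 14342. The markers did not order the 72 h libraries alike: replicate 3 was the lowest for 11, among them Ptprc and the macrophage receptor gene Csf1r (31.8, 61.7 and 20.1 CPM), in the middle for 4, and the highest for Itgam (42.5, 31.9 and 61.4 CPM) and Cd68 (5.67, 5.08 and 11.5 CPM), named after their values were seen. Spi1, the gene of the myeloid factor PU.1, was at 8.45, 14.7 and 7.34 CPM at 72 h. Per kilobase at 72 h, Runx1 was 23.2 to 42.3 times Ptprc, 5.52 to 12.2 times Spi1 and 2.81 to 9.59 times Csf1r. Runx2 was at 4.49 ± 0.674 and Runx3 at 2.91 ± 0.919 CPM per kb (SD, n = 3). Beside them, Csf1r was at 6.56 ± 3.72, Spi1 at 3.77 ± 1.47 and Ptprc at 1.09 ± 0.292 CPM per kb. These levels rest on annotated exon lengths, which include exons that may be unused. Lyz2, named after its values were seen, had the highest mean CPM of the 17 at 72 h (108, 170 and 61.6 CPM). It was not compared with Runx1 per kilobase. The part of blood cells in the rise of the Runx genes and Cbfb was not tested.

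Markers of other blood lineages ranged from absent to well detected. Over all tested genes 21.0% rose, and 731 of the 1065 that passed the filter through 72 h libraries alone. Of 10 neutrophil markers 4 were tested, all through their 72 h libraries alone, and 3 rose. Their summed level was 0.931 to 2.45 CPM at 0 h and 52.9, 26.6 and 167 CPM at 72 h, and 135 CPM of the last came from Ltf, which was at 3.59 and 3.70 CPM in the other 72 h libraries and was not called. The receptor gene Csf3r, named like Ltf after its values were seen, was at 29.4, 17.6 and 22.7 CPM at 72 h, a level like that of Ptprc before division by length, while Ly6g, Ngp and Camp had 0 counts in all 6 libraries, and S100a8 had 1 count at 0 h and 47 at 72 h. Of 12 T and NK cell markers, lineages in which Runx3 acts, 1 had enough counts to be tested. Their summed level was 1.90 to 3.39 CPM at 0 h and 4.28 to 6.48 CPM at 72 h, with Cd3e at 3 counts at 0 h and 2 at 72 h and Cd3d at 0 counts throughout. Of 9 mast cell and megakaryocyte markers 2 were tested and rose, Pf4 and Itga2b (summed level 2.76 to 5.45 CPM at 0 h and 17.6 to 42.5 CPM at 72 h), while Gp9, Gp1bb, Cpa3, Mcpt4 and Fcer1a had 0 counts in all libraries. Itga2b, the platelet integrin gene, lost its call without any one library but 72 h replicate 3 (adjusted p = 0.0595 to 0.0975). All 4 tested markers of 8 for dendritic and antigen presenting cells rose (17.7 to 24.6 CPM at 0 h, 64.8 to 131 CPM at 72 h), and no B cell marker of 4 had enough counts to be tested.

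Markers of other eye cells moved in both directions beside the Runx genes. Over all tested genes 21.0% rose and 17.5% fell. All 6 photoreceptor markers fell (summed level 605 to 1471 CPM at 0 h and 51.1 to 122 CPM at 72 h), and 1 of 5 pigment cell markers fell. Of 8 lens epithelial markers 7 fell, as did all 6 lens fiber markers found. Of 5 keratocyte and fibroblast markers 4 were tested, 2 rose and 1 fell (summed level 204 to 269 CPM at 0 h and 51.4 to 134 CPM at 72 h). Most of that sum was Pdgfra, which fell from 227 ± 33.1 to 77.2 ± 33.8 CPM (SD, n = 3). Dcn rose from 0.947 ± 0.726 to 18.6 ± 12.8 CPM and Lum from 0.0263 ± 0.0455 to 3.28 ± 1.09 CPM. Both had passed the filter through their 72 h libraries alone. The tested endothelial markers, 2 of 6, were not called. The 4 tested ocular surface keratins were not called either, with Krt14 at 0.232, 5.31 and 214 CPM in the 72 h libraries. Without 72 h replicate 3, the library high in these keratins, the Runx1 change was 6.97, the Runx2 change 3.42, the Runx3 change 4.72 and the Cbfb change 1.65 on the log2 scale. The part of these other cells in the results was not tested.

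**Figure D4:**
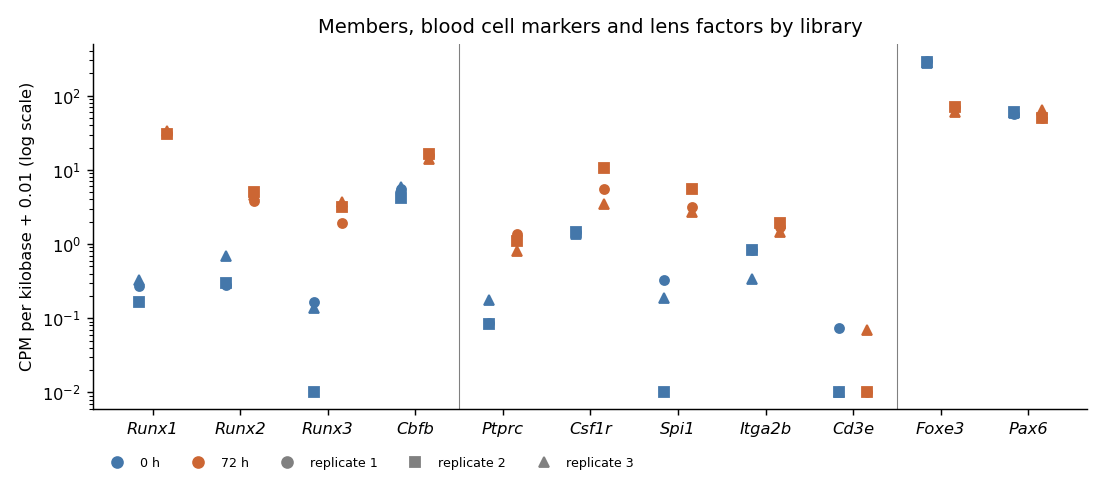
CPM per kilobase, with 0.01 added for the log axis, of the 4 genes, 5 blood cell markers and 2 lens epithelial factors in each library (blue 0 h, orange 72 h; symbols mark replicates). At 72 h Runx1 lies above every blood cell marker shown and below Pax6 and Foxe3. Runx2 and Runx3 lie within the span of the blood cell markers. Symbols at 0.01 are libraries with 0 counts. Lyz2, the macrophage marker with the highest CPM at 72 h, is not shown, so the figure does not place Runx1 above blood cell markers in general.

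Cofactors of RUNX proteins included genes that rose and genes that fell. Of 17 corepressor genes, all tested, 4 rose and 2 fell, with a median log2 change of −0.05 beside −0.02 over all tested genes. Across all tested genes 21.0% rose and 17.5% fell, so these counts are near the background. Sin3b, a scaffold of deacetylase complexes, rose by 0.48 ± 0.10 (SE) on the log2 scale, to 164 ± 13.4 CPM at 72 h (SD, n = 3). Tle5, a short Groucho family protein that counters the long TLE corepressors, fell by 0.96 ± 0.10 on the log2 scale, and the deacetylase gene Hdac4 by 0.74 ± 0.11. Of 11 coactivator genes 2 rose and 2 fell. Wwtr1, which encodes the Hippo pathway coactivator TAZ, rose from 30.7 ± 2.24 to 91.7 ± 19.4 CPM (1.58 ± 0.17), and the histone methyltransferase gene Kmt2a by 0.38 ± 0.10, a call lost without any one 0 h library (adjusted p = 0.0533 to 0.0680, edgeR). The acetyltransferase genes Kat6b and Kat2b fell by 0.96 ± 0.10 and 0.57 ± 0.14.

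Among 16 genes that act on the stability or modification of RUNX proteins, 7 rose and 3 fell (5 with upper quartile normalization). The shares over all tested genes were 21.0% and 17.5%. Smurf1, a ubiquitin ligase that marks RUNX2 for degradation, rose from 29.1 ± 2.82 to 108 ± 15.1 CPM (log2 change 1.89 ± 0.15), and the cell cycle kinase gene Cdk6 rose by 1.36 ± 0.14. The kinase genes Hipk3 and Hipk1 fell by 1.09 ± 0.10 and 0.55 ± 0.09. The median of the list was 0.24.

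Transcription factors that share DNA sites or complexes with RUNX proteins form the next list. Of 27 such genes 23 were tested, 14 rose and 2 fell, beside 21.0% and 17.5% of all tested genes. Of the 23, 8 passed the filter through their 72 h libraries alone, of which 5 rose, and 9 of the other 15 rose. Over all tested genes, 731 of 1065 that passed through 72 h libraries alone rose, and 2499 of the other 14342. Ets1, whose protein binds DNA together with RUNX1, was at 2.94, 1.86 and 3.71 CPM at 0 h and at 57.3, 59.8 and 58.8 CPM at 72 h. It was low in all 0 h libraries and nearly the same in all 72 h libraries, as Runx1 was (log2 change 4.36 ± 0.24, adjusted p = 1.1e-06, edgeR). Jun, an AP-1 subunit, rose from 64.4 ± 3.33 to 222 ± 45.7 CPM (1.78 ± 0.15). Msx2, a homeobox factor that restrains RUNX2, fell from 22.2 ± 3.07 to 4.21 ± 1.28 CPM (−2.39 ± 0.30). Gata2, a blood stem cell factor, fell by 2.51 ± 0.81. It had passed the filter through its 0 h libraries alone, which favours this direction. The call was lost without 0 h replicate 1, 0 h replicate 3 or 72 h replicate 2 (adjusted p = 0.0914 to 0.154, edgeR). Without 72 h replicate 1 the log2 change was −3.53. Spi1, itself a myeloid gene, is also in this list.

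Genes known as RUNX targets in blood were partly silent, and 10 of 21 were tested. Of these, 5 passed the filter through their 72 h libraries alone, Pf4 and Spi1 among them, and all 5 rose, a direction that the filter favours. Of the other 5, 3 rose and 2 were not called. Over all tested genes, 731 of 1065 that passed through 72 h libraries alone rose, and 2499 of the other 14342. Pf4, a chemokine gene of platelets and some macrophages, rose from 0.802 ± 0.255 to 17.4 ± 8.87 CPM (4.42 ± 0.50), and Myl9, a myosin light chain gene regulated by RUNX1 in megakaryocytes, from 14.6 ± 3.31 to 48.9 ± 5.81 CPM (1.75 ± 0.20). Csf1r, Pf4 and Itga2b are at the same time markers of blood cells, whose summed levels are given above. Mpo, Elane, Ctsg, Il3 and Gfi1b, named after their values were seen, had 0 counts in all 6 libraries, which allows a level of up to 0.0488 CPM over the 6 (3 counts, counting error only).

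Of 18 genes known as RUNX2 targets in bone, 9 were tested, of which 6 rose and 3 fell. The shares over all tested genes were 21.0% and 17.5%. Of the 6 that rose, 3 had passed the filter through their 72 h libraries alone, Mmp9 among them. Alpl, which fell, had passed it through its 0 h libraries alone. Col1a1, a chain of type I collagen, was at 4.93, 5.00 and 4.26 CPM at 0 h and at 758, 614 and 465 CPM at 72 h (log2 change 7.01 ± 0.21, adjusted p = 3.5e-08, edgeR). Mmp9, a gelatinase gene, rose by 6.87 ± 0.64, and by 8.98 without 0 h replicate 3, which held most of its few counts at 0 h. The FGF receptor genes Fgfr2 and Fgfr3 fell by 1.93 ± 0.17 and 1.82 ± 0.27. The osteoblast factor Sp7 and the bone matrix genes Ibsp and Bglap2, named after their values were seen, had 0 counts in all 6 libraries, with the same upper limit.

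Among 11 targets in growth control, 6 rose and 3 fell, beside 21.0% and 17.5% of all tested genes. Among those that rose, 2 had passed the filter through their 72 h libraries alone. Socs3, a cytokine feedback inhibitor, rose from 7.92 ± 0.887 to 139 ± 7.82 CPM (4.13 ± 0.14), and Myc from 5.06 ± 0.446 to 36.7 ± 6.33 CPM (2.86 ± 0.22). Bcl2, which protects cells from apoptosis, fell by 0.81 ± 0.16, and the cyclin gene Ccnd2 by 0.68 ± 0.12. These lists hold genes bound or regulated by many other factors, and their changes do not measure RUNX activity.

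**Figure D5:**
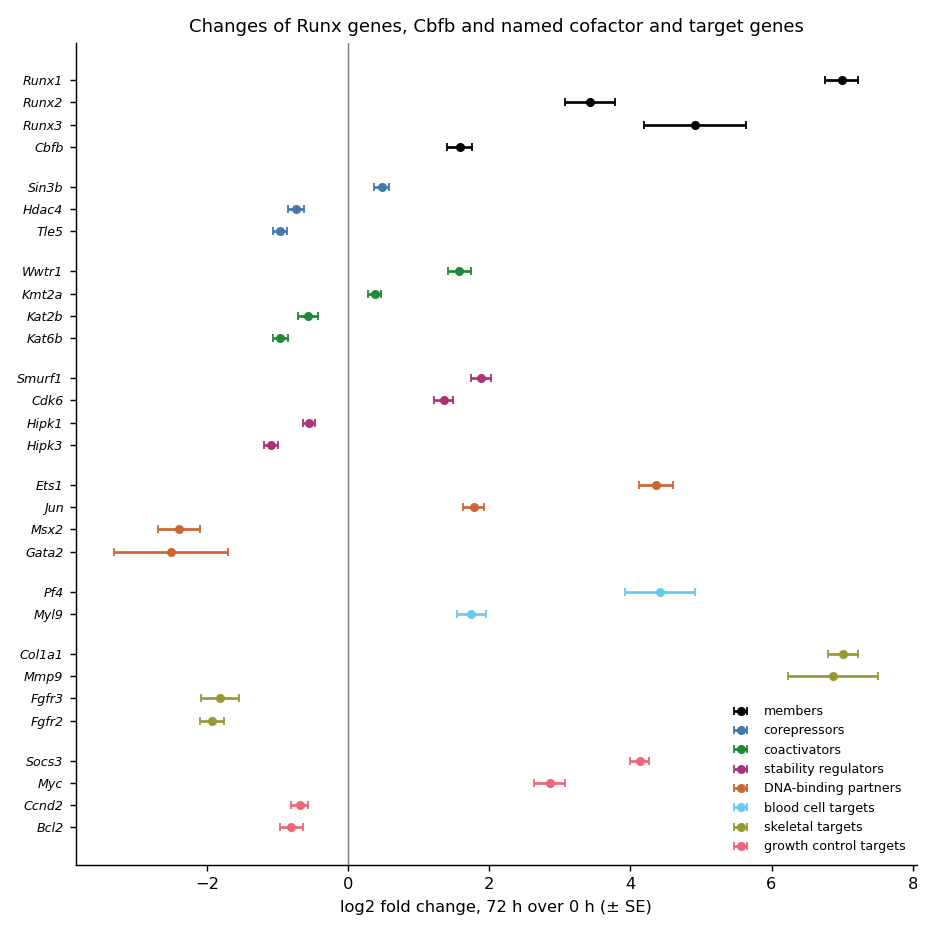
Log2 fold change (72 h over 0 h, with SE) of the 4 genes (black) and of the genes named from each cofactor and target list (colours), which were chosen by small p in each direction. Runx1 at 6.99 lies with Col1a1 and Mmp9 at the right end of the genes plotted, while the named corepressors and coactivators lie between −0.96 and 1.58. In the target lists, Spp1 (10.2), Tnfrsf11b (8.52) and Csf2 (7.63), named after their values were seen, rose more than Runx1 and are not plotted. They passed the filter through 72 h libraries alone, as Mmp9 did.

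The genes whose profiles over the 6 libraries lay closest to each member were found among 9069 others with a mean of at least 10 CPM, by the root mean square difference of mean-centred log2 CPM. Because that difference is dominated by the step between the times, it picks genes with a change of like size. For Runx1 they were Tagln (0.369), which encodes the actin-binding protein transgelin, the growth factor gene Pdgfb (0.395), the fibronectin gene Fn1 (0.405) and Col1a1 (0.419). Tagln rose from 1.37 ± 0.868 to 124 ± 3.65 CPM and Pdgfb from 0.860 ± 0.0114 to 161 ± 42.1 CPM. For Runx2 they were the potassium channel gene Kcnn2 (0.314), the lysosomal protease gene Ctss (0.316), the TWEAK receptor gene Tnfrsf12a (0.318) and the lipid droplet gene Plin2 (0.325). Ctss, which macrophages express strongly, varied widely at 72 h (56.7 ± 24.4 CPM).

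For Runx3 the distances were larger, with Ptprn (0.465), which encodes a protein of secretory granules, Stmn2 (0.470), Arhgap45 (0.494) and Coro2a (0.548). Coro2a, of the coronin family of actin-binding proteins, was at 27.4 ± 21.2 CPM at 72 h and lost its call with limma voom (adjusted p = 0.0554), and its log2 change was 5.60 and 4.77 without 72 h replicate 3. Stmn2, a stathmin gene of neurons, changed by 4.40, and by 5.03 without 0 h replicate 3. For Cbfb the distances were the smallest, and among the closest were the pseudouridine synthase gene Pus1 (0.0708), the sterol isomerase gene Ebp (0.0812) and the formin gene Fhod1 (0.0899). Their log2 changes were 1.51 for Pus1, 1.54 for Ebp and 1.58 for Fhod1, beside 1.58 for Cbfb.

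Genes that overlap the members could share reads with them, since the strand setting of the counting was not given. The antisense gene Runx2os1 had 0 counts in every 0 h library and 28, 29 and 23 counts at 72 h, at least 37.7-fold higher against a floor of 3 counts over the 0 h group. Supt3, which overlaps Runx2 on the other strand, had 164, 136 and 268 counts at 0 h and 60, 74 and 104 counts at 72 h. Its log2 change of −0.73 ± 0.33 missed the threshold (adjusted p = 0.107, edgeR) and passed it without 72 h replicate 3 (adjusted p = 0.0204). The antisense gene Gm26626 within Runx1 had 1 count at 0 h and 4 at 72 h, against 108 and 9712 for Runx1, and Gm16224 within Runx3 had 0 counts in all libraries. Reads of Runx2 and of its antisense partner cannot be told apart with certainty.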

How the data were processed

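RNA of pooled capsules was isolated by Qiagen RNeasy columns, and Takara SMARTer Stranded Pico v2 was used for libraries (source: the labels' protocols). The values deposited by the authors are unnormalized counts of reads for each Ensembl gene. The submitters' processing notes name HISAT2, HTSeq, edgeR and GRCm39; versions, annotation release and strand setting: not given in the sources used here. Each file lists 56940 genes and 5 lines of unassigned reads (41.9% to 51.7% of reads), which were left out. Symbols matched 51947 identifiers of a GENCODE table, whose annotation of another build also gave exon lengths.

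Genes were filtered with filterByExpr (minimum count 10, or 0.986 CPM, in 3 libraries; total 15) and scaled by TMM. Time was the only term in edgeR's two-sided quasi-likelihood test (edgeR 4.0.16, R 4.3.3), with Benjamini-Hochberg adjustment over 15407 genes and a threshold of 0.05. Log2 changes (72 h over 0 h) were shrunk by a prior count of 0.125, and each SE was derived from the F statistic. Ratios used a pseudocount of 0.5 and profiles a prior count of 2. Replicates are pools, so p-values measure the spread between pools. No 2 libraries were duplicates (chi-square per degree of freedom at least 7.08). The fit was tested on simulated data.

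The members, 7 cofactor and target lists (118 genes, 94 tested) and 13 marker lists were chosen with earlier results of these data known. Lim2 was not found by its symbol. Named are the members, the 2 called genes of smallest p per list and direction, the 4 closest profiles per member and fixed markers; a few of these are not reported here. Alternatives were the replicate block, other scalings, filters, DESeq2 1.42.0, limma voom (limma 3.58.1) and leaving out each library.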

Additional observations from a re-analysis of the deposited data

How the results depend on the processing

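All 4 members kept their direction and their call under all 15 alternatives. Over these the log2 change ranged from 6.73 to 7.23 for Runx1, 3.20 to 3.99 for Runx2, 4.33 to 5.60 for Runx3 and 1.43 to 1.68 for Cbfb, with a highest adjusted p of 6.6e-06, 7.7e-04, 0.0075 and 9.2e-04. The lowest and highest values came from leaving out 1 library, apart from the highest of Runx3 (5.60 with limma voom, 5.43 otherwise). With the replicate block the changes were 7.03, 3.53, 5.00 and 1.59, and the block changed no call of a member; genes called higher numbered 2921 and genes called lower 2507, against 3230 and 2700. The shared numbers are not known to pair the pools: deviations of same-numbered libraries correlated at −0.04, 0.06 and −0.01 across genes. The ratio results had a paired exact permutation p of 0.25, the smallest possible. No scaling moved the median of all genes by more than 0.09 (log2). Without 1 library, genes called higher ranged from 2511 to 3646 and genes called lower from 1877 to 3265, the Runx1 share of summed Runx counts rose by 41.4 to 48.0 percentage points, the log2 ratio of Runx1 to Cbfb by 5.30 to 5.56 and the log2 ratio of Runx1 to Runx2 by 3.29 to 3.81. Of 762 tests of 51 other named genes under an alternative, 12 lost a call, 1 gained one and none changed direction. Spi1 changed by 4.48, by 5.31 without 0 h replicate 1 and by 5.17 with limma voom, and Mmp9 by 7.52 with limma voom. The stricter filter left Gata2 untested. With 17 counts at 0 h, depth limits the size given for Runx3.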
